A study of Homo sapiens with 40 samples.

Results

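The genes described here encode 10 proteins that license and fire the origins of DNA replication. The licensing genes were ORC1, ORC6, CDC6, CDT1 and GMNN, and the firing genes were CDC45, GINS1, GINS2, GINS3 and GINS4. They were chosen by name from these known roles, with earlier results of these data known. All 10 were measured among the 18244 genes that had at least 1 probe set annotated to a single gene. They had 20 of the 45284 such probe sets. Each gene was followed by its brightest probe set on average, and its other probe sets are given beside it.

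RNA came from confluent cultures of AG01522, 1 line of normal human skin fibroblasts grown in serum-containing medium, and was hybridised to 40 Affymetrix PrimeView arrays. A total of 4 arrays came from sham-irradiated cultures (0 Gy, kept under a lead mask), and 3 arrays came from each of 12 groups, namely X-rays of 5 cGy alone, 2 Gy alone, or 5 cGy as a priming dose with 2 Gy as the challenge 12 h later (5 cGy + 2 Gy, or primed cells), with RNA taken 3, 6, 12 or 24 h from the last exposure. The doses of 5 cGy and 2 Gy were also given at different tube voltages and dose rates. The sham cultures carry no time of 3 h or later, so that time after irradiation and time in culture cannot be told apart in any comparison with sham. Arrays of 1 group are biological replicates by their labels, with no word on whether the cultures were separate, so the p-values measure the spread between these arrays. Cells of 1 line hold no spread between donors. In these cell populations, fewer cells that express a gene and less RNA per cell cannot be told apart.

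An origin is licensed between mitosis and the start of S phase, when the origin recognition complex (ORC), CDC6 and CDT1 load the MCM2-7 helicase onto DNA. Geminin, the product of GMNN, binds CDT1 in S and G2 phase and blocks loading, so that no origin is licensed again in the same cycle. When S phase starts, CDC45 and the GINS complex, which GINS1 to GINS4 build, join the loaded helicase and form the active CMG helicase at the fork. ORC1, CDC6, CDT1, CDC45 and the GINS genes are known targets of E2F transcription factors and are low in cells that have left the cycle.

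Values are log2 intensities after RMA, so a difference of 1 is a 2-fold change. Array medians lay between 5.62 and 5.7. All 10 fibroblast markers had a mean above the median probe set of the arrays, as did 2 of 5 keratinocyte, 1 of 4 melanocyte, 1 of 5 endothelial and 1 of 4 leukocyte markers. The difference between the 3′ and 5′ GAPDH control probe sets, a sign of RNA integrity, lay between 0.23 and 1.05. The highest value belonged to replicate 1 of 2 Gy at 24 h, and the other 2 arrays of that group had 0.26 and 0.27. Levels of different probe sets are not on a common scale, so genes are compared by their changes.

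The windows around the transcription starts of CDC6, CDT1, CDC45 and GINS2 are shown because CDC6, CDC45 and GINS2 had the largest changes at 24 h after 2 Gy and CDT1 held an abutting pair of E2F motifs. Each window holds 250 bases before the start and 50 from it, from RefSeq on GRCh38.p14. The motif searched on both strands was the E2F core as 8 octamers, TTTGGCGC, TTTGGCGG, TTTCGCGC, TTTCGCGG, TTTCCCGC, TTTCCCGG, TTTGCCGC and TTTGCCGG, and its matches are in capitals (a match on the other strand reads as the reverse complement). The windows are chr17:40287629-40287928 on the plus strand for CDC6, chr16:88803539-88803838 on the plus strand for CDT1, chr22:19479670-19479969 on the plus strand for CDC45 and chr16:85688905-85689204 on the minus strand for GINS2.
CDC6: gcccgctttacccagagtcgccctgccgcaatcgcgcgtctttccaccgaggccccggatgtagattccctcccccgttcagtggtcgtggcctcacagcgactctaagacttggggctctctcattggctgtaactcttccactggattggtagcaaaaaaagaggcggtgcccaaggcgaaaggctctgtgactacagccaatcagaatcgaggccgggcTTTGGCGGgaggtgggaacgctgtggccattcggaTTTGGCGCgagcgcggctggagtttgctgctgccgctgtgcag
CDT1: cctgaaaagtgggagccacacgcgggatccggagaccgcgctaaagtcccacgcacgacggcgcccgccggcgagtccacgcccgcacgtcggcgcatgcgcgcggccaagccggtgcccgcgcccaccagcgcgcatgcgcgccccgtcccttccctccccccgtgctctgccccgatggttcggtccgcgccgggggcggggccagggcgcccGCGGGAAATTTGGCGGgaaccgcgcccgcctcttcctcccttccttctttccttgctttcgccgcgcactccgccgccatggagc
CDC45: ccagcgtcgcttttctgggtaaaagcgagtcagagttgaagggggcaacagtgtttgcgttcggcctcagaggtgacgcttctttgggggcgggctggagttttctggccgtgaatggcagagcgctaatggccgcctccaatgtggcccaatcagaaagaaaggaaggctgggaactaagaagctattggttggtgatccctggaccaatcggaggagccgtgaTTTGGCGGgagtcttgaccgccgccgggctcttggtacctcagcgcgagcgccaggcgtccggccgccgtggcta
GINS2: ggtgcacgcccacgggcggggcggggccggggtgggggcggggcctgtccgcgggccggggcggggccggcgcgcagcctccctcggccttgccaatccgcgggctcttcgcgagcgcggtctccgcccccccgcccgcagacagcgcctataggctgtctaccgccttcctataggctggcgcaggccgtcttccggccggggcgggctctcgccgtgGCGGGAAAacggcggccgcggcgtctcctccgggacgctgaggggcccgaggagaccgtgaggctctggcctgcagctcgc

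The E2F core was found at least once in a window of 7 genes, CDC6, CDT1, GMNN, CDC45, GINS1, GINS2 and GINS3, of the 9 whose windows were searched. The 9 genes had 12 windows, since GMNN had 2 starts and CDC45 had 3, and 7 of the 12 held the core, against 6.19% of all 35116 windows of the same length. In CDC6 it lay at -28 and at 7 from the start, in CDT1 at -35 and -27, in CDC45 at -25 and in GINS2 at -31. With the last 7 letters alone, 9 of the 12 windows matched, ORC1 among them, against 23.7% of all windows. The ORC6 window held no match to either form. The letters CCAAT on either strand were in 8 of the 12 windows against 34.6% of all, and TTTGAA (the CHR letters) in 0 of 12 against 15.2%. These matches describe letters only. Other windows lie at chr1:52404374-52404673 on the minus strand for ORC1, and on the plus strand at chr16:46689409-46689708 for ORC6, chr6:24774687-24774986 and chr6:24775163-24775462 for GMNN (the latter with the core, at -80), chr22:19479216-19479515 and chr22:19479576-19479875 for the other CDC45 starts, chr20:25407423-25407722 for GINS1 and chr16:58392221-58392520 for GINS3. Windows on chromosome 8, where GINS4 lies, were left out of the search of the set, so no window of GINS4 is given.

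Every gene of the set was called lower than sham 24 h after the last dose in primed cells and in cells with 2 Gy alone. At 24 h after 5 cGy all 10 means were below sham, and 8 of the 10 were called lower. The median change was -1.001 after 5 cGy, -1.66 after 2 Gy and -1.88 after 5 cGy + 2 Gy on the log2 scale, while the median over all genes tested lay between 0.01 and 0.03. Among all genes, 0.976%, 2.25% and 4.05% were called lower in these 3 comparisons. A call is an adjusted p under 0.05 from limma after Benjamini-Hochberg adjustment over all 18244 genes, two-sided, and the 12 comparisons with sham share the same 4 sham arrays.

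**Figure D1:**
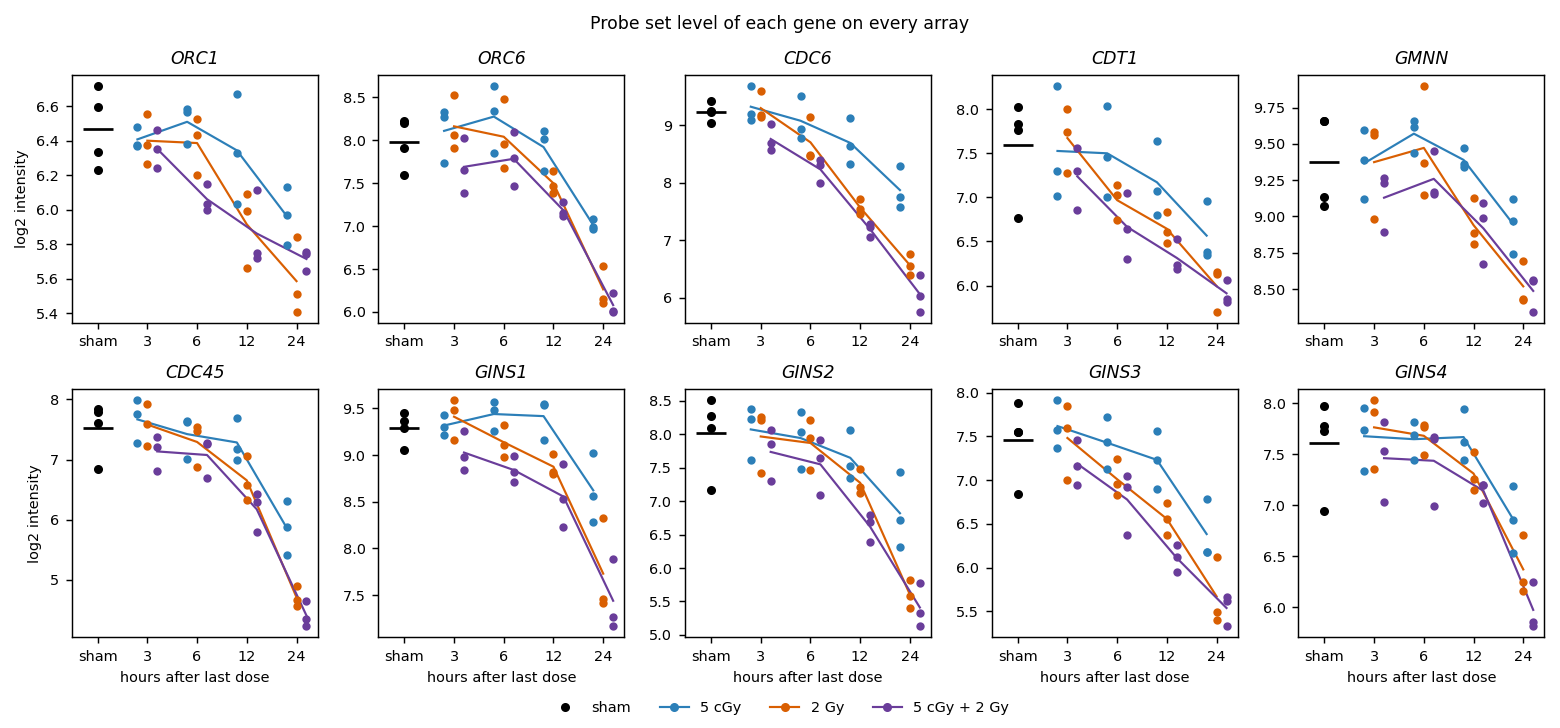
Each panel plots the log2 intensity of 1 gene on every array, with sham on the left and then hours after the last dose. Points are arrays, the black bar is the sham mean and coloured lines join group means. The lowest group mean is that of 5 cGy + 2 Gy at 24 h in 9 panels and that of 2 Gy at 24 h in the ORC1 panel.

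CDC6, the ATPase that joins ORC on DNA and recruits CDT1 with the helicase, had the steepest fall among the licensing genes. Its sham arrays read 9.03, 9.42, 9.25 and 9.22. At 24 h the arrays read 8.29, 7.75 and 7.57 after 5 cGy, 6.75, 6.55 and 6.40 after 2 Gy, and 6.03, 6.40 and 5.76 after 5 cGy + 2 Gy. No irradiated array at 24 h reached the lowest sham array, and the arrays of 5 cGy lay above those of both other treatments. The change from sham was -1.36 ± 0.20 (SE; 3 arrays against 4, as in every comparison with sham) after 5 cGy, a 2.56-fold fall (limma adjusted p = 0.000161). It was -2.66 ± 0.20 after 2 Gy (6.33-fold, adjusted p = 1.43e-10) and -3.16 ± 0.20 after 5 cGy + 2 Gy (8.96-fold, adjusted p = 1.11e-12).

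CDT1, the factor that brings the helicase to ORC and CDC6, had sham arrays of 6.77, 7.83, 7.76 and 8.03, so that replicate 1 stood well below the others. After 5 cGy the 24 h arrays read 6.96, 6.35 and 6.39, and 1 of them lay above the lowest sham array. They read 6.15, 6.13 and 5.70 after 2 Gy and 6.07, 5.82 and 5.85 after 5 cGy + 2 Gy, all below sham. The changes were -1.03 ± 0.28, -1.60 ± 0.28 and -1.69 ± 0.28, and all 3 were called by limma (adjusted p = 0.0326, 0.000327 and 8.68e-05).

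ORC1, the ATPase subunit that is degraded after licensing and made again in G1, changed less than CDC6. Sham arrays read 6.33, 6.23, 6.72 and 6.60. The 24 h arrays read 6.13, 5.97 and 5.79 after 5 cGy, 5.51, 5.41 and 5.84 after 2 Gy, and 5.76, 5.65 and 5.74 after 5 cGy + 2 Gy. None of these 9 arrays reached a sham array, and the arrays of 2 Gy spanned those of 5 cGy + 2 Gy. The changes were -0.50 ± 0.14, -0.88 ± 0.14 and -0.75 ± 0.14, with limma adjusted p of 0.0334, 7.16e-05 and 0.000281.

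ORC6, a subunit that is not an ATPase and sits at the edge of ORC, fell after all 3 treatments. Its sham arrays read 7.59, 8.20, 8.22 and 7.91, and its 24 h arrays lay between 6.96 and 7.08 after 5 cGy, between 6.11 and 6.53 after 2 Gy and between 6.01 and 6.22 after 5 cGy + 2 Gy. The groups did not overlap with sham. The changes were -0.97 ± 0.20, -1.72 ± 0.20 and -1.90 ± 0.20 (limma adjusted p = 0.00428, 5.29e-07 and 4.1e-08).

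GMNN, the inhibitor of licensing, and ORC1 had the smallest changes of the 10 after 2 Gy. The GMNN sham arrays read 9.65, 9.65, 9.13 and 9.07. The 24 h arrays read 9.12, 8.97 and 8.74 after 5 cGy, which overlap with sham, and that difference of -0.43 ± 0.17 was not called (limma adjusted p = 0.172). They read 8.70, 8.43 and 8.43 after 2 Gy and 8.55, 8.56 and 8.35 after 5 cGy + 2 Gy, all below sham. These changes of -0.86 ± 0.17 and -0.89 ± 0.17 were called, at limma adjusted p of 0.00132 and 0.000498.

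CDC45, the helicase subunit whose joining marks the firing of an origin, had the largest change after 5 cGy and after 2 Gy. The sham arrays read 6.84, 7.84, 7.79 and 7.61. At 24 h the arrays read 6.31, 5.89 and 5.41 after 5 cGy, 4.89, 4.57 and 4.66 after 2 Gy, and 4.34, 4.65 and 4.23 after 5 cGy + 2 Gy. All 9 arrays lay below sham, and those of 5 cGy lay above the other 6. The changes were -1.65 ± 0.25 (3.14-fold), -2.81 ± 0.25 (7.01-fold) and -3.11 ± 0.25 (8.65-fold), with limma adjusted p of 0.000205, 5.87e-09 and 3.13e-10. On the arrays of 5 cGy + 2 Gy at 24 h the CDC45 probe set stood above 30.5% of all probe sets on average, against 72.4% on the sham arrays, so part of the range below it is the dim end of the array, where RMA values compress differences.

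Of the GINS genes, which encode the subunits PSF1 (GINS1), PSF2 (GINS2), PSF3 (GINS3) and SLD5 (GINS4), GINS2 changed most. Its sham arrays read 7.16, 8.50, 8.10 and 8.28, and its 24 h arrays 7.43, 6.71 and 6.31 after 5 cGy, 5.82, 5.40 and 5.59 after 2 Gy, and 5.78, 5.32 and 5.13 after 5 cGy + 2 Gy. Replicate 1 of 5 cGy lay above replicate 1 of sham, and the arrays of the other 2 treatments lay below every sham array. The changes were -1.19 ± 0.29, -2.41 ± 0.29 and -2.60 ± 0.29 (limma adjusted p = 0.0177, 1.06e-06 and 1.51e-07).

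GINS1 read 9.06 to 9.45 in sham, 8.28 to 9.02 at 24 h after 5 cGy, 7.41 to 8.32 after 2 Gy and 7.17 to 7.88 after 5 cGy + 2 Gy, with changes of -0.67 ± 0.19, -1.56 ± 0.19 and -1.85 ± 0.19. GINS3 read 6.84 to 7.88 in sham and 6.18 to 6.79, 5.40 to 6.12 and 5.33 to 5.67 in these groups, with changes of -1.07 ± 0.23, -1.78 ± 0.23 and -1.92 ± 0.23. Neither gene overlapped with sham in any of them, and all 6 changes were called. GINS4 read 6.95 to 7.97 in sham and 6.54 to 7.19, 6.16 to 6.70 and 5.81 to 6.25 at 24 h. Its change after 5 cGy, -0.75 ± 0.22, overlapped with sham and missed the threshold (limma adjusted p = 0.0542), and its changes of -1.24 ± 0.22 after 2 Gy and -1.63 ± 0.22 after 5 cGy + 2 Gy were called.

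Counted without a model, every array of the 24 h group lay below every sham array in 6 of the 10 genes after 5 cGy (3.37% of all genes), in 10 after 2 Gy (5.32%) and in 10 after 5 cGy + 2 Gy (7.57%). The counts of 10 (2 Gy, and primed cells) stayed at 10 when any 1 array was left out, replicate 1 of 2 Gy with its high GAPDH difference included, while GMNN and GINS4 lost their call when sham and 2 Gy at 24 h, 7 arrays, were fitted alone. The count of 8 after 5 cGy fell to 5 without replicate 2, 3 or 4 of sham, to 4 without replicate 2 and to 3 without replicate 3 of 5 cGy, and in a fit of only those 7 arrays CDC6 was the 1 gene called.

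**Figure D2:**
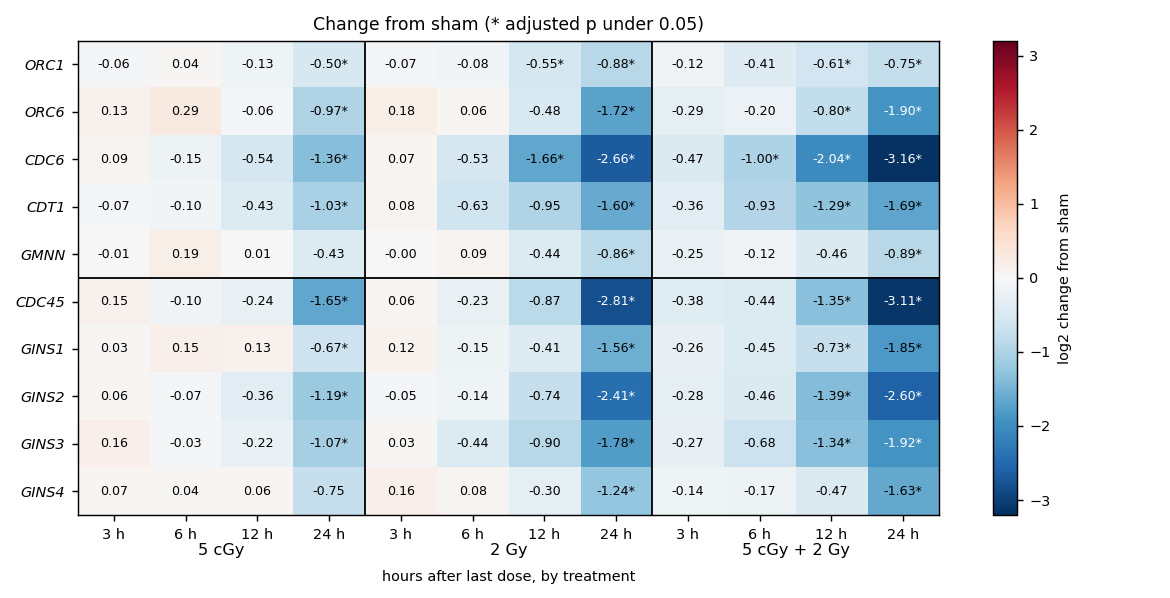
Rows are the genes (licensing above the line, firing below) and columns the hours after the last dose for each treatment. Each cell gives the log2 change from sham, coloured from blue (lower) to red (higher), and a star marks a limma adjusted p under 0.05. All 20 cells at 24 h of the 2 Gy and primed columns carry a star, and no cell at 3 h does.

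At 3 h no gene of the set was called after any treatment. Changes from sham lay between -0.07 and 0.16 after 5 cGy and between -0.07 and 0.18 after 2 Gy, with intervals between -0.64 and 0.66. Among all genes 0%, 0.0164% and 0.0767% were called lower at 3 h in the order 5 cGy, 2 Gy and primed. In primed cells all 10 values were below 0, between -0.47 (CDC6, unadjusted p = 0.0265) and -0.12 (ORC1), and none passed the adjusted threshold. The CDC6 arrays there read 8.57, 9.02 and 8.69, all below the lowest sham array, which held for 1 gene of the 10 and for 2% of all genes.

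At 6 h the only call was CDC6 after 5 cGy + 2 Gy, where 0.148% of all genes were called lower. Its arrays read 7.99, 8.40 and 8.30, all below sham, and the change was -0.999 ± 0.20 (2.00-fold, limma adjusted p = 0.0139). ORC1 and GINS1 also lay below every sham array there, so that 3 of the 10 did against 4.28% of all genes. The CDC6 call was lost without replicate 2 of sham or without any 1 of the 3 arrays of its own group, and the count was 3 without replicate 1 of sham. After 5 cGy the 6 h values lay between -0.15 and 0.29 (0% of all genes called lower), and after 2 Gy between -0.63 (CDT1) and 0.09 (GMNN; 0.0493%).

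At 12 h, 0, 2 and 8 genes of the set were called against sham after 5 cGy, 2 Gy and in primed cells, and the differences between treatments at this time, given below with their tests, were not called. After 5 cGy no gene of the set was called (0.0548% of all genes called lower), and the lowest value was that of CDC6, -0.54 ± 0.20. After 2 Gy 2 genes were called, against 0.301% of all genes. CDC6 arrays read 7.54, 7.71 and 7.45, all below sham by over 1, with a change of -1.66 ± 0.20 (limma adjusted p = 1.5e-05). ORC1 arrays read 5.66, 6.00 and 6.09, and its change was -0.55 ± 0.14 (limma adjusted p = 0.0453). GINS3, at -0.90 ± 0.23, just missed the threshold (adjusted p = 0.0534). With the replicate number as a block, 6 of the 10 were called, while the share of all genes called lower rose to 2.24%. Without replicate 1 of sham 5 were called, and without replicate 3 or 4 of sham or any 1 array of 2 Gy at 12 h only CDC6 was.

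After 5 cGy + 2 Gy, 8 of the 10 were called at 12 h, against 0.597% of all genes, and the exceptions were GMNN (-0.46 ± 0.17) and GINS4 (-0.47 ± 0.22). CDC6 read 7.23, 7.28 and 7.06, a change of -2.04 ± 0.20 (4.10-fold, limma adjusted p = 3.13e-07). CDC45 read 5.79, 6.43 and 6.30 and changed by -1.35 ± 0.25, and GINS2 read 6.68, 6.79 and 6.38 and changed by -1.39 ± 0.29. The arrays of these 3 genes lay below every sham array, as did those of 8 of the 10 genes (3.51% of all genes), and after 2 Gy at 12 h those of 4 (3.94%). The count of 8 was 4 without replicate 2 of sham or replicate 3 of 5 cGy + 2 Gy at 12 h and 5 without replicate 3 of sham, replicate 1 or replicate 2 of 5 cGy + 2 Gy at 12 h. In a fit of only the 7 arrays it was 1, CDC6.

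Comparisons of 24 h with 3 h within a treatment do not use the sham arrays. All 10 genes were called lower at 24 h after 2 Gy (5.41% of all genes called lower) and in primed cells (2.01%). After 5 cGy all 10 changes were below 0, and 6 genes were called lower (1.26%), namely ORC6, CDC6, CDC45, GINS2, GINS3 and GINS4. CDC45 changed by -1.80 after 5 cGy, by -2.87 after 2 Gy and by -2.73 in primed cells. GMNN changed by -0.86 after 2 Gy and by -0.64 in primed cells, while after 5 cGy its value was -0.42 ± 0.18 (limma adjusted p = 0.236). The GMNN call in primed cells was lost without any 1 of their 24 h arrays or without replicate 1 or 2 at 3 h. These comparisons show changes along time in culture as well as after the dose.

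The fall from 3 h to 24 h differed between arrays of different replicate numbers. Between arrays numbered 1 the median change over the 10 genes was -0.25 after 5 cGy, -1.002 after 2 Gy and -1.06 in primed cells. Between arrays numbered 2 it was -1.50, -2.27 and -2.01, and between arrays numbered 3 it was -1.25, -2.06 and -1.67. The change was below 0 in all 30 pairs of each treatment, and the smallest change was that of number 1 for 10 genes after 5 cGy, 8 after 2 Gy and 9 in primed cells. GINS2 after 5 cGy changed by -0.17, -1.66 and -1.92 between arrays numbered 1, 2 and 3. Array number 1 was the lowest of its group in 26 of 30 cases (10 genes, 3 treatments) at 3 h, in 26 at 6 h, in 10 at 12 h and in 0 at 24 h, where it was the highest in 26. It was also the lowest sham array for 8 of the 10 genes. What these arrays share besides the number was not given in the sources used here.

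**Figure D3:**
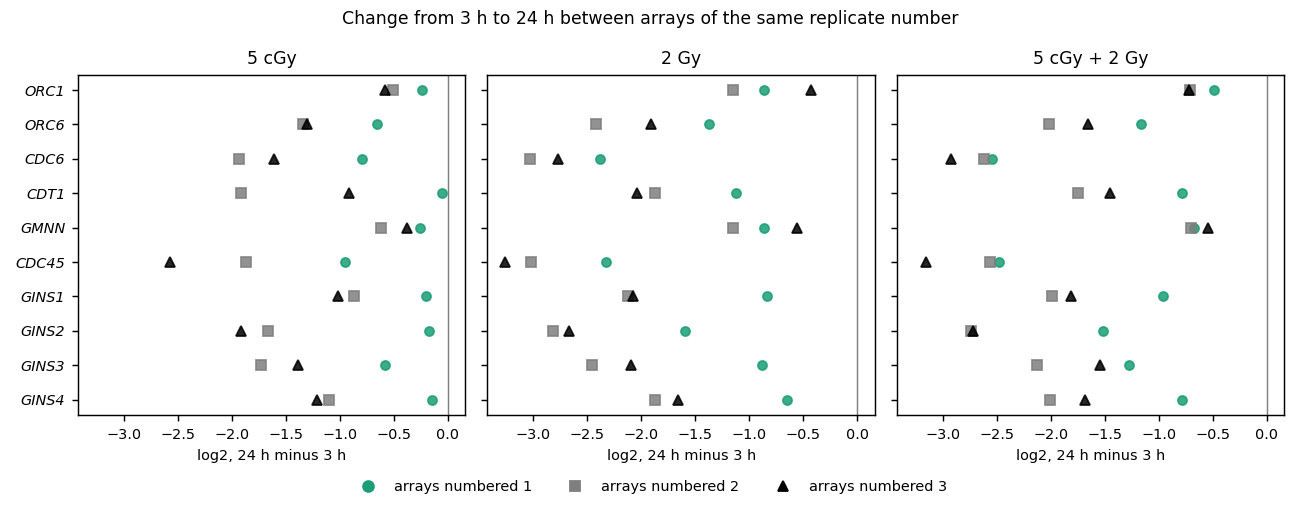
The horizontal axis is the log2 difference between the 24 h and the 3 h array of the same replicate number, for each gene (rows) and treatment (panels). Circles are arrays numbered 1, squares 2 and triangles 3. All 90 points lie below 0, and the circle is the point nearest to 0 in 10, 8 and 9 rows.

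The dose comparison set 2 Gy against 5 cGy at the same time after the dose. At 3 h the differences lay between -0.14 and 0.15, and at 6 h between -0.53 and 0.03, with no call among the 10 or, for lower levels, among all genes (0%). At 12 h all 10 were below 0, between -0.36 and -1.12, and none was called (0% of all genes). CDC6 had the largest difference, -1.12 ± 0.22 (limma adjusted p = 0.0688), and its arrays of 7.54, 7.71 and 7.45 after 2 Gy lay below those of 8.64, 9.12 and 8.32 after 5 cGy. With the replicate number as a block CDC6 was called (0.0219% of all genes called lower), and it was also called without replicate 3 of 5 cGy at 12 h.

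At 24 h all 10 were again lower after 2 Gy than after 5 cGy in their means, with a median of -0.73. CDC6 was the only gene called, at -1.30 ± 0.22 (limma adjusted p = 0.00254), against 0.159% of all genes called lower. CDC45 (-1.16 ± 0.27), GINS1 (-0.89 ± 0.20) and GINS2 (-1.21 ± 0.31) had adjusted p of 0.0656, 0.0591 and 0.155. The replicate block called 5, ORC6, CDC6, CDC45, GINS1 and GINS2, and 0.4% of all genes were then called lower. The CDC6 call was lost without replicate 3 of 2 Gy, without replicate 1 of 5 cGy and without every array numbered 1, while 2 genes were called without replicate 1 of 2 Gy and 3 without replicate 3 of 5 cGy. The change from 3 h to 24 h was also set against each other between doses, a test chosen after the data were seen. All 10 fell further after 2 Gy in their means, between -0.37 and -1.28 (CDC6, limma adjusted p = 0.237) with no call (0% of all genes). Between 5 cGy + 2 Gy and 5 cGy the same differences lay between -0.19 and -1.25 with no call (0.0164% of all genes called lower), and between 5 cGy + 2 Gy and 2 Gy they lay between -0.10 and 0.35 with no call (0%).

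The series was designed to compare primed cells (5 cGy + 2 Gy) with cells that had only the 2 Gy dose. Without a replicate block no gene of the set was called at any time, nor was any of the 18244 genes (0% at 3, 6, 12 and 24 h and for the mean of the 4 times). With the block 0 genes were called at each time, and for the mean of the 4 times CDC6 was the 1 gene of the set called. All 10 means were lower in primed cells at 3, 6 and 12 h, with medians of -0.34, -0.28 and -0.33, and 9 were at 24 h, with a median of -0.19. The exception was ORC1 at 24 h, 0.13 ± 0.15. The medians over all genes lay between -0.03 and 0.02. At 24 h the 95% intervals of the 10 differences ran from -0.94 to 0.52, so that differences of that size either way were not resolved with 3 arrays a group.

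CDC6 had the largest mean difference over the 4 times, -0.47 ± 0.11 (unadjusted p = 0.000126, limma adjusted p = 0.534 over all genes). At 3 h its arrays read 8.57, 9.02 and 8.69 in primed cells against 9.13, 9.59 and 9.17 with 2 Gy alone, at 6 h 7.99, 8.40 and 8.30 against 8.49, 9.15 and 8.47, at 12 h 7.23, 7.28 and 7.06 against 7.54, 7.71 and 7.45, and at 24 h 6.03, 6.40 and 5.76 against 6.75, 6.55 and 6.40. Primed arrays lay below all arrays of 2 Gy at 3, 6 and 12 h, and overlapped with them at 24 h. Between arrays of the same number all 12 differences were below 0, from -0.75 to -0.15. With the replicate number as a block the mean difference was -0.47 ± 0.08 (limma adjusted p = 0.0107; 0.0107 to 1 over 33 alternatives, of which the block was the 1 that called it), and 0.0822% of all genes were called lower. Same-numbered arrays deviated together with r over 0.1 in every pair at 3, 6 and 24 h but not at 12 h (lowest r 0.0928).

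ORC6 (-0.31 ± 0.11), CDC45 (-0.36 ± 0.13), GINS1 (-0.32 ± 0.10), GINS2 (-0.35 ± 0.16), GINS3 (-0.28 ± 0.12) and GINS4 (-0.28 ± 0.12) also had intervals of the mean difference that excluded 0, before adjustment, and CDT1 (-0.29 ± 0.15), GMNN (-0.13 ± 0.09) and ORC1 (-0.07 ± 0.07) did not.

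Genes whose primed arrays all lay below those of 2 Gy numbered 1 at 3 h (CDC6), 2 at 6 h (CDC6 and ORC1), 4 at 12 h (ORC6, CDC6, GINS2 and GINS3) and 0 at 24 h. Among all genes the shares were 8.02%, 5.07%, 2.46% and 6%. The share of the 10 at 3 h is near that of all genes, and the genes are not independent of each other.

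**Figure D4:**
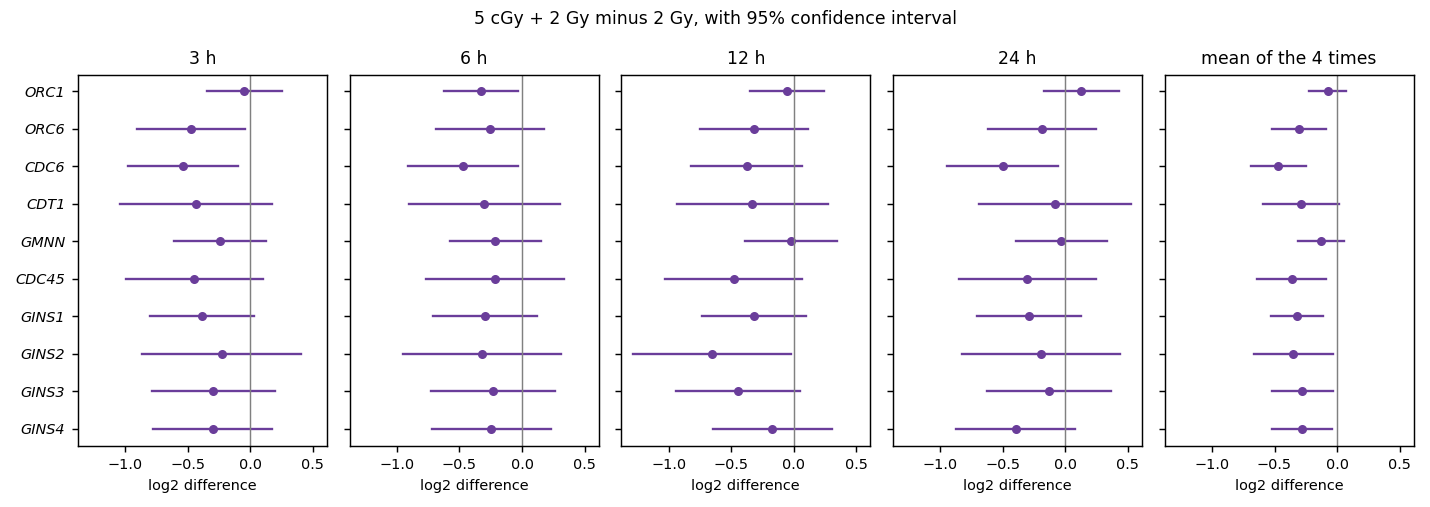
Points are the log2 difference between 5 cGy + 2 Gy and 2 Gy for each gene at each time and for the mean of the 4 times, and bars are 95% confidence intervals of the model. All points but that of ORC1 at 24 h lie below 0, most bars cross 0, and the bars of 7 genes stay below 0 in the last panel, before adjustment over all genes.

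Primed cells at 12 h after the challenge dose were 24 h past the priming dose, and were therefore set against 5 cGy alone at 24 h. No gene of the set was called, nor any gene (0% called lower). CDC6 read 7.23, 7.28 and 7.06 in primed cells against 8.29, 7.75 and 7.57 after 5 cGy, a difference of -0.68 ± 0.22 (limma adjusted p = 0.567). The other 9 differences lay between -0.27 (GINS3) and 0.30 (CDC45), with 3 above 0. For CDC45 the arrays read 5.79, 6.43 and 6.30 against 6.31, 5.89 and 5.41 and overlapped.

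At the same point the change of primed cells was compared with the sum of the changes after 2 Gy at 12 h and after 5 cGy at 24 h. All 10 values were above 0, between 0.35 and 1.17, which means that the change in primed cells was smaller than the sum. CDC45 had the largest, 1.17 ± 0.37 (limma adjusted p = 0.571), and CDC6 the next, 0.98 ± 0.30. None was called, and of all genes 0.00548% were called higher and 0.00548% lower. The sham arrays enter this sum, and the sham arrays have no time of their own.

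The order of the 13 group means was similar among the genes. Every gene had its highest mean in a group at 3 h or 6 h after 5 cGy or at 3 h after 2 Gy, and sham ranked between 2 and 6. Most neighbours in the order overlapped. In CDC6 the means ran from 9.32 (5 cGy at 3 h) to 6.07 (5 cGy + 2 Gy at 24 h), a range of 3.25, and 2 of 12 neighbouring pairs did not overlap, 2 Gy at 12 h with 5 cGy + 2 Gy at 12 h and that group with 2 Gy at 24 h. In CDC45 the range was 3.26 and 5 cGy at 24 h did not overlap with 2 Gy at 24 h below it. In GMNN, ORC1, GINS1, GINS3 and GINS4 all neighbours overlapped. GMNN had a range of 1.08 and ORC1 one of 0.92.

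Over the 13 group means each gene correlated with the mean of the other 9 at r of 0.95 to 0.99. The most alike pair was CDC45 and GINS2 (r = 0.99), and the least alike was CDT1 and GINS4 (r = 0.88), whose levels parted at 6 h, when CDT1 was -0.63 from sham and GINS4 0.08 after 2 Gy. The 13 means share arrays, time and culture, so these values are descriptions. Outside the set, DTL (r = 0.998), TCF19 (0.994), TM4SF1 (0.987), FEN1 (0.987) and UHRF1 (0.986) were most like the mean profile of the 10, among 4543 genes with a range of group means of at least 0.5. DTL encodes the substrate receptor of the CRL4 ubiquitin ligase that marks CDT1 for degradation. FEN1 is the flap endonuclease of lagging-strand synthesis, and UHRF1 recruits the maintenance DNA methyltransferase at forks.

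CDC6, CDT1, CDC45, GINS1 and GINS4 had more than 1 probe set, 15 in all. At 24 h after 2 Gy all 10 other probe sets had values below 0, and 9 of them were called (limma adjusted p over all probe sets with 1 gene). The share of all such probe sets that was called is not given, so this count is not set against other probe sets. The changes were smaller than those of the followed probe sets. The other CDC6 probe set, with a mean of 6.31, changed by -1.51 against -2.66. The other CDC45 probe sets changed by -0.85 and -1.70 against -2.81, those of CDT1 by -0.78 and -0.93 against -1.60, and those of GINS1, with means of 4.39 and 3.91, by -0.44 and -0.79 against -1.56. Of GINS4, 2 others changed by -0.85 and -1.09 against -1.24, and the third, with a mean of 3.54, read -0.19 (adjusted p = 0.588).

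At 24 h after 5 cGy, 3 of the 10 other probe sets were called, 2 of CDC45 (-0.76 and -1.10) and 1 of GINS1 (-0.42). Here too the share of all probe sets called is not given. The other CDC6 probe set read -0.62 against -1.36 (adjusted p = 0.0809), those of CDT1 -0.40 and -0.44 against -1.03 (adjusted p = 0.412 and 0.269), and those of GINS4 -0.56, -0.76 and 0.13 against -0.75. The calls of CDC6 and CDT1 after 5 cGy therefore rest on the brightest probe set. The brightest GINS1 probe set was called with the adjustment over genes. With the adjustment over all probe sets with 1 gene it was not called (limma adjusted p = 0.0549), while the dimmer one with a mean of 4.39 was (0.0319). For the difference between primed and 2 Gy cells over the 4 times, the other CDC6 probe set read -0.17 against -0.47, those of CDC45 -0.14 and -0.25 against -0.36, those of CDT1 -0.24 and 0.02 against -0.29, those of GINS1 0.03 and -0.15 against -0.32, and those of GINS4 -0.02, -0.05 and 0.01 against -0.28. All 10 were nearer to 0 than the followed probe set of their gene, and none was called. With the mean of a gene's probe sets in place of the brightest, CDT1 lost its call at 24 h after 5 cGy.

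The partner genes of the pathway did not all move with the set. Of the 4 other ORC subunits, ORC2 to ORC5, none was called at 24 h after any treatment, with medians of -0.17, 0.14 and -0.15 for 5 cGy, 2 Gy and primed cells in that order. After 2 Gy ORC4 read 0.32 ± 0.20 and ORC5 -0.10 ± 0.21, beside -0.88 for ORC1 and -1.72 for ORC6. The 6 MCM2-7 genes encode the helicase that is loaded. At 24 h 5 of them were called lower both after 2 Gy and in primed cells, and 2 after 5 cGy (MCM4 and MCM6). Among all genes 2.25%, 4.05% and 0.976% were called lower in these groups, in that order. MCM6 changed by -0.98, -1.35 and -1.46 and MCM7 by -1.24 after 2 Gy and -1.32 after 5 cGy + 2 Gy, while MCM5 read -0.18 ± 0.10 and -0.08 ± 0.10 in those groups.

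Of 13 firing kinases and adaptors, 5 were called lower at 24 h after 2 Gy, 5 in primed cells and 2 after 5 cGy. For this and the lists that follow, 2.25%, 4.05% and 0.976% of all genes were called lower in these groups. MCM10, which helps start the CMG helicase, changed by -0.81, -1.83 and -1.79. The cyclin gene CCNE2 was called lower in all 3 groups, but its probe set, above 39.8% of all probe sets on the sham arrays, stood above only 10.1%, 8.0% and 2.99% of them at 24 h after 5 cGy, 2 Gy and in primed cells, at the dim end where the size of a difference is not resolved. CCNA2, another S phase cyclin, changed by -1.80 after 2 Gy and -2.41 after 5 cGy + 2 Gy. Of 12 fork proteins, 7 were called lower after 2 Gy and 7 in primed cells. After 5 cGy 1 was called lower, the polymerase epsilon subunit POLE2 (-0.87). Of 14 genes of licensing control and turnover, 1 was called lower after 5 cGy (DTL, -1.18). After 2 Gy 2 were called lower (DTL, -2.47, and CCNF, -0.88). After 5 cGy + 2 Gy 5 were called lower, with DTL at -2.76 and CDC20 at -1.64, and RBX1 was called higher, by 0.32. The medians of the lists at 24 h after 2 Gy were -0.98 for MCM2-7, -0.50 for firing kinases and adaptors, -0.41 for fork proteins and 0.00 for licensing control and turnover, against 0.02 for all genes.

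**Figure D5:**
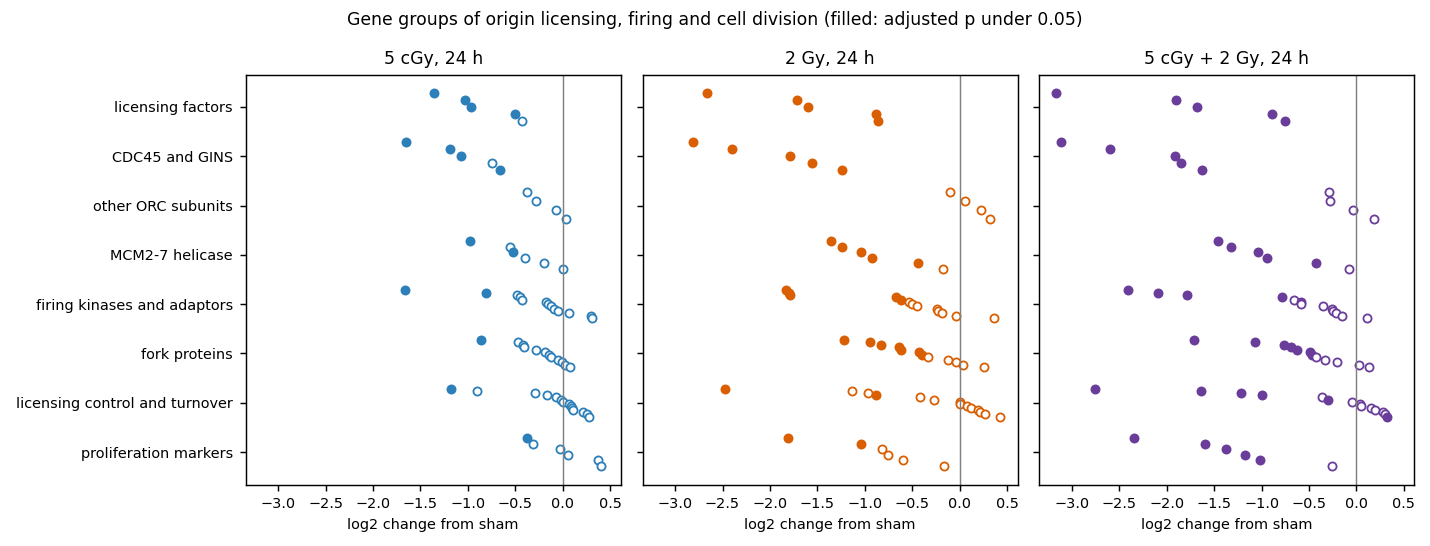
Each point is 1 gene, placed by its log2 change from sham at 24 h (5 cGy, 2 Gy or primed), with gene groups as rows. Filled points passed a limma adjusted p of 0.05. All 10 points of the upper 2 rows are filled for 2 Gy and for primed cells, the 4 other ORC subunits are unfilled, and after 5 cGy 1 proliferation marker, PCNA, is filled.

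Markers of dividing cells were read beside the set, since replication genes are expressed in cycling cells. At 24 h after 5 cGy the 6 proliferation markers had a median of 0.01, and only PCNA, the sliding clamp, was called lower (-0.38 ± 0.10). MKI67 read -0.03 ± 0.28, TOP2A 0.06 ± 0.27 and the mitotic cyclin gene CCNB1 0.40 ± 0.32, and none of them was called, nor were CDK1 and BUB1. The genes of the set lay between -1.65 (CDC45) and -0.43 (GMNN) there, with a median of -1.001, and GMNN and GINS4 were not called. After 2 Gy 2 of the 6 were called lower (MKI67, -1.81, and CDK1, -1.03), with a median of -0.79. After 5 cGy + 2 Gy 5 of the 6 were called lower, with a median of -1.28. The shares of all genes called lower were 0.976% after 5 cGy, 2.25% after 2 Gy and 4.05% after 5 cGy + 2 Gy. A difference between the set and these markers was not tested, and the part of a changing share of dividing cells in the values of the set was not tested.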

How the data were processed

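The authors deposited log2 values per probe set for 40 arrays, made by RMA (background adjustment, quantile normalization, summary over probes), a tool the submitters' notes name with no version given. In the study's methods, probes were regrouped by a custom definition and genes were filtered by interquartile range, while the deposited log2 table holds 49495 of the maker's standard probe sets, unfiltered. Gene names came from the platform annotation, where 1333 probe sets with several genes and 2878 with none were left out. All arrays entered 1 limma fit (limma 3.58.1, R 4.3.3, lmFit and eBayes) with 13 group means and 27 residual degrees of freedom. All 29 comparisons were tested on 18244 genes with Benjamini-Hochberg adjustment, and every one of the 10 genes is named. Partner genes were named if called, at most 4 a list, and others were named after their values were seen. The 10 genes and the lists were chosen with earlier results of these data known. The fit was tested on simulated data. Precision is limited by how many arrays a group has.

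The labels number the arrays of each group, and no source ties a number to a culture or day. Deviations from the group means of same-numbered arrays correlated at 0.26 on average (different numbers, -0.12), and every pair was over 0.1 in 13 of the 24 comparisons of 2 groups. Deviations within a group sum to 0, so the value for different numbers falls below 0 when the other is above it. It is therefore no separate evidence. Values with the replicate block stand beside the main results where every pair was over 0.1 and the block changed a call. They are also given for primed against 2 Gy cells, where not every pair at 12 h was over 0.1. The other counts that the block moved are given further below, whether or not the pairs were over 0.1. The alternatives were the replicate block, the mean of a gene's probe sets, cyclic loess, filters on the lowest 20% of means or of interquartile ranges, only the arrays compared, array weights, the GAPDH difference as a covariate, the threshold of the study's methods and leaving out each array. Leaving out every array numbered 1 and the comparison of changes from 3 h to 24 h were chosen after seeing the data.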

Additional observations from a re-analysis of the deposited data

How the results depend on the processing

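The direction of no called change was reversed under any alternative run. Of 4900 values of single genes under an alternative, 4727 kept their side of the threshold, 88 lost a call and 85 gained one. The counts of 10 genes at 24 h after 2 Gy and after 5 cGy + 2 Gy against sham kept within 1.5 times under every alternative, as did those of 24 h against 3 h after 2 Gy and after 5 cGy + 2 Gy. The replicate block gave 1 gene for 5 cGy at 12 h, 6 for 2 Gy at 12 h (2 without it), 10 for 24 h against 3 h after 5 cGy (6), 1 and 5 for 2 Gy against 5 cGy at 12 and 24 h (0 and 1), 1 for the mean of primed against 2 Gy, 2 for additivity, and 1 each for the change from 3 h to 24 h of 2 Gy and of 5 cGy + 2 Gy against that of 5 cGy (0 in each). With the block, 0.959%, 2.24%, 3.65%, 0.0219%, 0.4% and 0.0822% of all genes were called lower in the comparisons from 5 cGy at 12 h to the mean of primed against 2 Gy, 0.63% higher in additivity, and 0.0329% and 0.0932% lower in the comparisons of changes. It changed no other count by over 1.5 times, and the pairs were over 0.1 throughout only for 2 Gy at 12 h and for 2 Gy against 5 cGy among these.

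Fits of only the arrays compared gave 1 gene for 5 cGy at 24 h (8), 1 for 2 Gy at 12 h (2), 0 for 5 cGy + 2 Gy at 6 h (1), 1 for 5 cGy + 2 Gy at 12 h (8) and 2 for 2 Gy against 5 cGy at 24 h (1), with 4 or 5 residual degrees of freedom. Array weights gave 7 for 2 Gy at 12 h, 4 for 5 cGy + 2 Gy at 6 h, 5 for 2 Gy against 5 cGy at 24 h and 2 for the change of 5 cGy + 2 Gy against that of 5 cGy. For 2 Gy against 5 cGy at 24 h, cyclic loess gave 2, the filter on interquartile ranges 3 (and 1 at 12 h) and the GAPDH difference as a covariate 2. Without every array numbered 1 the counts were 6 for 2 Gy at 12 h, 3 for 2 Gy against 5 cGy at 24 h, 1 for additivity and 1 for the change of 2 Gy against that of 5 cGy. The cause of these shifts was not tested, apart from the fewer arrays in the fits of only the arrays compared. The share of all genes called is not given for the fits of this paragraph, nor for those that left out 1 array. Their counts are therefore not set against other genes. Whether the shifts belong to the set or to calls in general was not tested.

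With calls made at a p of 0.05 before adjustment together with a fold of 1.2, the counts against sham were 1 for 5 cGy at 12 h, 2 and 9 for 2 Gy at 6 and 12 h, and 1 and 5 for 5 cGy + 2 Gy at 3 and 6 h. They were 10 for 24 h against 3 h after 5 cGy, 6 and 9 for 2 Gy against 5 cGy at 12 and 24 h, and 2, 2, 1 and 1 for primed against 2 Gy at 3, 6, 12 and 24 h, with 7 for the mean of the 4 times. They were 1 for primed at 12 h against 5 cGy at 24 h, 4 for additivity, and 5 and 4 for the change of 2 Gy and of 5 cGy + 2 Gy against that of 5 cGy. This rule called 3.95%, 2.86%, 0.811% and 1.46% of all genes, in either direction, for primed against 2 Gy at the 4 times, 0.532% for their mean, and between 2.39% and 13.3% in the other comparisons of this paragraph. Leaving out 1 array moved the count between 3 and 9 for 5 cGy at 24 h, 1 and 5 for 2 Gy at 12 h, 0 and 3 for 5 cGy + 2 Gy at 6 h, 4 and 8 for 5 cGy + 2 Gy at 12 h, 0 and 1 for 2 Gy against 5 cGy at 12 h and 0 and 3 at 24 h. With 3 arrays a group, differences of about 0.5 between primed and 2 Gy cells were not resolved after adjustment.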

Other observations

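Among the genes whose profile over the 13 groups was most like that of the 10 genes, TM4SF1 stands out as a gene of a cell surface protein of the tetraspanin-like family, with no known part in replication. Its group means spanned 1.91 on the log2 scale, and r was 0.987. TCF19 spanned 2.53, DTL 2.86, UHRF1 2.54 and FEN1 1.52. The groups share time and culture, and no relation between these genes was tested.

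At 24 h against 3 h after 2 Gy, 1 of the 4 other ORC subunits and 2 of the 14 genes of licensing control and turnover were called higher. None of the 6 MCM2-7 genes, 13 firing kinases and adaptors and 12 fork proteins was called higher. The share over these 5 lists was near that of all genes, 6.21%. The genes called higher were the cullin genes CUL4B, by 0.89 ± 0.24, and CUL4A, by 0.33 ± 0.09, and ORC4, by 0.64 ± 0.21 (limma adjusted p = 0.0152, 0.0205 and 0.0469). PCNA was higher than sham at 6 h after 2 Gy, by 0.71 ± 0.10, and in primed cells at 6 h, by 0.49 ± 0.10 (limma adjusted p = 0.000157 and 0.0139), and it was higher after 2 Gy than after 5 cGy at 6 h, by 0.61 ± 0.11 (limma adjusted p = 0.00769). RBX1, the RING subunit of cullin ligases, was higher than sham at 24 h in primed cells. Of the 10 fibroblast markers, PDGFRB was higher than sham at 24 h after all 3 treatments, by 0.45, 0.39 and 0.41 ± 0.12 for 5 cGy, 2 Gy and primed cells (limma adjusted p = 0.0271, 0.0439 and 0.0207). S100A4 was higher in primed cells at 24 h, by 0.48 ± 0.09 (limma adjusted p = 0.000266). The other fibroblast markers were not called against sham at 24 h. Among all genes 2.13%, 3.8% and 5.86% were called higher there after 5 cGy, 2 Gy and in primed cells. Of the markers of other cell types, the leukocyte gene CD3E was called higher after 5 cGy (0.39) and the endothelial gene TEK lower in primed cells (-0.83).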
